A study of Sus scrofa with 48 samples.

Results

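The genes described here encode proteins that release, take up and bind long-chain fatty acids: LPL, CD36, SLC27A1, SLC27A3, FABP1, FABP3, FABP4 and FABP5. Members were all probes of the array that carry 1 of these 8 names, which gave 9 probes of 43603 for 7 of the 8 genes. CD36 has 3 probes and the other 6 genes have 1 each, and no probe could be matched to FABP3. Of the 9 probes, 7 were named through a RefSeq accession. The CD36 probe A_72_P024756 and the SLC27A3 probe A_72_P250527 were named only through the paper's list of liver genes, which was selected by the p-value between the lines in liver on these arrays. Their liver differences between lines are therefore a description and support nothing. The FABP5 probe and the CD36 probe A_72_P393078 are on that list as well, but carry their names through RefSeq.

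The study asked whether the diet of founder boars leaves traces in their grand-offspring through the male line. F0 boars of the Swiss Large White breed were raised either on a standard diet (line C) or on that diet with added methionine, choline, betaine, vitamins B6 and B12 and folate (line E), while the F1 and F2 generations of both lines ate standard diets. The 48 arrays hold RNA of gluteus medius muscle (GM), liver and kidney of 16 F2 pigs at slaughter weight, 8 F2 C and 8 F2 E, each group with 4 barrows and 4 females. Each line goes back to a small number of founder boars, and the labels give neither the litters nor the sires of the pigs nor their age. The tests between lines treat the pigs as independent, though pigs of a line may share sires and litters. A difference between lines and a difference between families therefore cannot be told apart. The paper also states that it could not separate genetic from epigenetic effects.

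Of the 43803 probe spots of an array, the number well above the local background was at least 18948 and at most 28754 among the GM arrays, 24128 and 30814 among the liver arrays, and 25071 and 36804 among the kidney arrays. The kidney arrays of F2 E replicates 5 and 7, which shared a slide and belong to the lower number series, stood apart. Both had a median signal of 48, where the other 14 kidney arrays had 100 to 240.5, and they had the fewest spots well above background, 27156 and 25071 against at least 28579. The 4 GM arrays of F2 E in the lower series, which filled a slide, had the fewest spots well above background of the GM arrays, 18948 to 21292 against at least 21592. The median background was also higher on every F2 E array of GM (26 to 28) than on any F2 C array of GM (14 to 24), so that background and line cannot be told apart in GM. Kidney and GM results are therefore also given without the 2 and the 4 arrays, choices made after the values were seen. The arrays lay on 12 slides, and every slide held a single tissue, so that tissue and slide cannot be told apart. In GM and kidney each slide also held a single line. In liver, slides 1 and 2 each held 2 F2 C and 2 F2 E pigs, slide 3 held 4 F2 E pigs and slide 4 held 4 F2 C pigs. The numbers in the labels of the pigs form a lower and an upper series with 4 pigs of each line in each, and the liver slides with both lines hold the whole lower series. Within each series the numbers of F2 C and F2 E form separate runs, and the labels do not tell whether a run is a family.

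Fatty acids reach a tissue in 2 main forms, bound to albumin or as triglyceride in lipoproteins. LPL, an enzyme that acts on the wall of capillaries, releases fatty acids from the lipoprotein triglyceride. CD36, a membrane receptor, and the SLC27 family of transport proteins, which also activate fatty acids to their CoA esters, bring them into the cell. The FABP proteins then hold the fatty acids in the cytosol: FABP1 is the abundant form of liver, FABP3 that of heart and skeletal muscle, FABP4 that of adipocytes and of many capillary endothelial cells, and FABP5 is found in skin, endothelial cells, macrophages and other cells. Muscle is known to take up fatty acids for oxidation, liver for oxidation and for export as lipoproteins, and the proximal tubule of the kidney for oxidation.

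The comparison between tissues shows where each member was expressed. Most member probes were brightest in GM, intermediate in kidney and dimmest in liver: the probes of LPL, FABP4 and FABP5 and 2 of the 3 probes of CD36 followed this order. SLC27A3 was highest in kidney. FABP1 was expressed in liver at a level at least 689 times that in kidney. All 48 arrays were normalized together for this comparison, the pig was a fixed block in limma, and a probe was called at an adjusted p below 0.05 with at least a 2-fold difference. Values are log2 signals of a probe, which cannot be compared between probes. In such whole tissues, fewer cells of a type and less RNA per cell cannot be told apart.

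Between liver and kidney 7 of the 9 member probes were called, 1 higher in liver and 6 lower, where 11.4% of all 34512 probes tested were higher and 13.5% lower. Between GM and liver 8 were called, 7 higher in GM and 1 lower, against 15% and 14.6% of all probes. Between GM and kidney 8 were also called, 7 higher in GM and 1 lower, against 15.3% and 17.1%. The median log2 difference over the member probes was 5.10 from liver to GM, 3.64 from kidney to GM and -2.74 from kidney to liver. The medians over all probes were -0.01, -0.05 and -0.02. Without the pigs of the 2 dim kidney arrays the calls were 7, 8 and 9, the additional one being FABP1 between GM and kidney, and the largest change of a member difference was 0.29, that of the CD36 probe A_72_P024756 between liver and kidney (from -2.88 to -3.17). Without the pigs of the 4 GM arrays the calls were 7, 8 and 9 as well, and the largest change was 0.41, that of FABP5 between liver and kidney.

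LPL was read by the probe A_72_P232767. Its log2 signal ranged from 11.51 to 12.55 in GM, with a median of 11.84, and from 7.00 to 8.79 in kidney, with a median of 8.14. In liver 0 of 16 arrays had it well above background, with values from 4.99 to 5.59. The 3 tissues did not overlap. LPL was 14.9-fold higher in GM than in kidney (log2 difference 3.90, standard error 0.12, adjusted p = 3.19e-26 in limma), in all 16 pigs. Against liver a lower bound only can be given, which sets the dim value on each array to the higher of the probe's own signal and the lowest signal of any probe well above background. By this bound LPL was at least 77.3-fold higher in GM than in liver (means 11.90 and 5.26, adjusted p = 8.81e-34 in limma) and at least 5.17-fold higher in kidney than in liver (means 8.00 and 5.26, adjusted p = 3.69e-21 in limma).

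CD36 was read by 3 probes, and each of them was at least 20-fold brighter in GM than in liver. The probe A_72_P303204 ranged from 14.32 to 15.26 in GM (median 14.67), from 9.37 to 11.13 in kidney (median 10.34) and from 7.55 to 8.85 in liver (median 8.18). The tissues did not overlap on this probe. GM exceeded liver by a log2 difference of 6.44 (standard error 0.14, adjusted p = 9.85e-32 in limma, 16 of 16 pigs) and kidney by 4.43. Liver lay below kidney, with -2.01, in 16 of 16 pigs. The probe A_72_P024756 gave the same order, with GM over liver at 6.74, GM over kidney at 3.87 and liver against kidney at -2.88. The third probe, A_72_P393078, was 4.72 higher in GM than in liver and 4.32 higher than in kidney, but separated liver and kidney less. Its liver values lay between 6.03 and 6.92 and its kidney values between 6.28 and 7.38, and the difference of -0.40 stayed under 2-fold (adjusted p = 0.00730 in limma, lower in liver in 13 of 16 pigs).

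The transport proteins SLC27A1 and SLC27A3 had different orders of tissues. SLC27A1 (A_72_P035941) ranged from 11.04 to 12.22 in GM (median 11.62), from 9.35 to 10.18 in kidney (median 9.73) and from 8.87 to 9.99 in liver (median 9.37). It was 4.66-fold higher in GM than in liver (log2 difference 2.22, adjusted p = 2.38e-20 in limma) and 3.64-fold higher than in kidney (1.86, adjusted p = 5.09e-18), each in 16 of 16 pigs. Liver and kidney overlapped, at a difference of -0.36 that was under 2-fold (adjusted p = 0.00352 in limma, lower in liver in 14 of 16 pigs). SLC27A3 (A_72_P250527) ranged from 12.33 to 13.67 in kidney (median 12.79), from 10.47 to 11.47 in GM (median 10.92) and from 9.44 upward in liver (median 10.02). Kidney stood apart from both other tissues, which overlapped. SLC27A3 was lower in GM than in kidney by a log2 difference of -1.96 (adjusted p = 1.34e-17 in limma) and lower in liver than in kidney by -2.78 (adjusted p = 4.89e-22), each in 16 of 16 pigs. GM was above liver in 16 of 16 pigs as well, but the difference of 0.82 was under 2-fold (adjusted p = 7.62e-08 in limma).

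FABP1 (A_72_P176371) marked the liver. It ranged from 15.38 to 16.90 there (median 16.28, 14 arrays, since the spots of 2 F2 C arrays were marked as outliers by the scanner software), from 5.22 upward in kidney (median 6.51) and from 5.07 to 6.85 in GM (median 5.93). It was well above background on 16 of 16 liver arrays, 13 of 16 kidney arrays and 3 of 16 GM arrays. Liver exceeded kidney by a log2 difference of 9.48 (standard error 0.24, adjusted p = 1.23e-27 in limma) in 14 of 14 pigs, or by at least 9.43 with the bound used for LPL. On 13 of 16 GM arrays the signal was at background, so for GM against liver a bound is given, a log2 difference of -10.04 or lower (adjusted p = 3.44e-29 in limma, 14 of 14 pigs). GM and kidney overlapped, and the size of their difference is uncertain for the same reason. The fit gave -0.90, under 2-fold (adjusted p = 0.00113 in limma), and -1.15 without the pigs of the 2 dim kidney arrays. With the bound the log2 difference over all 16 pigs was -0.61 or lower, at least 1.53-fold. Kidney had the widest spread of any member in any tissue, with an SD of 1.31 over the 16 pigs.

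FABP4 and FABP5 were bright in GM and dim in liver. FABP4 (A_72_P127301) ranged from 14.31 to 16.15 in GM (median 15.03), from 10.69 to 11.97 in kidney (median 11.43) and from 7.21 to 9.55 in liver (median 8.68). The tissues did not overlap, and GM was 83.1-fold above liver (log2 difference 6.38, adjusted p = 2.19e-28 in limma) and 12.5-fold above kidney (3.64, adjusted p = 1.38e-20), each in 16 of 16 pigs. FABP5 (A_72_P165231) ranged from 15.24 to 15.93 in GM (median 15.51), from 13.34 to 15.39 in kidney (median 14.39) and from 9.38 to 11.85 in liver (median 10.10). Its GM and kidney values overlapped, and GM was higher by 1.18 (adjusted p = 1.76e-06 in limma, 15 of 16 pigs). Liver lay apart from both. FABP5 was 34.3-fold higher in GM than in liver (log2 difference 5.10, adjusted p = 2.86e-23 in limma) and 15.1-fold lower in liver than in kidney (-3.92, adjusted p = 1.86e-19), each in 16 of 16 pigs. Of 8 adipocyte marker probes, 5 were called higher in GM than in liver and 6 higher than in kidney, with 0 lower. Their median differences were 1.17 and 1.96. Of 7 endothelial probes 0 were called between GM and liver, while 3 were higher and 2 lower in GM than in kidney. Of 9 macrophage probes 9 were lower in GM than in liver, and against kidney 2 were higher and 2 lower. Of all probes 15% were called higher and 14.6% lower in GM than in liver, and 15.3% higher and 17.1% lower than in kidney. The part of these cells in the tissue differences was not tested.

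**Figure D1:**
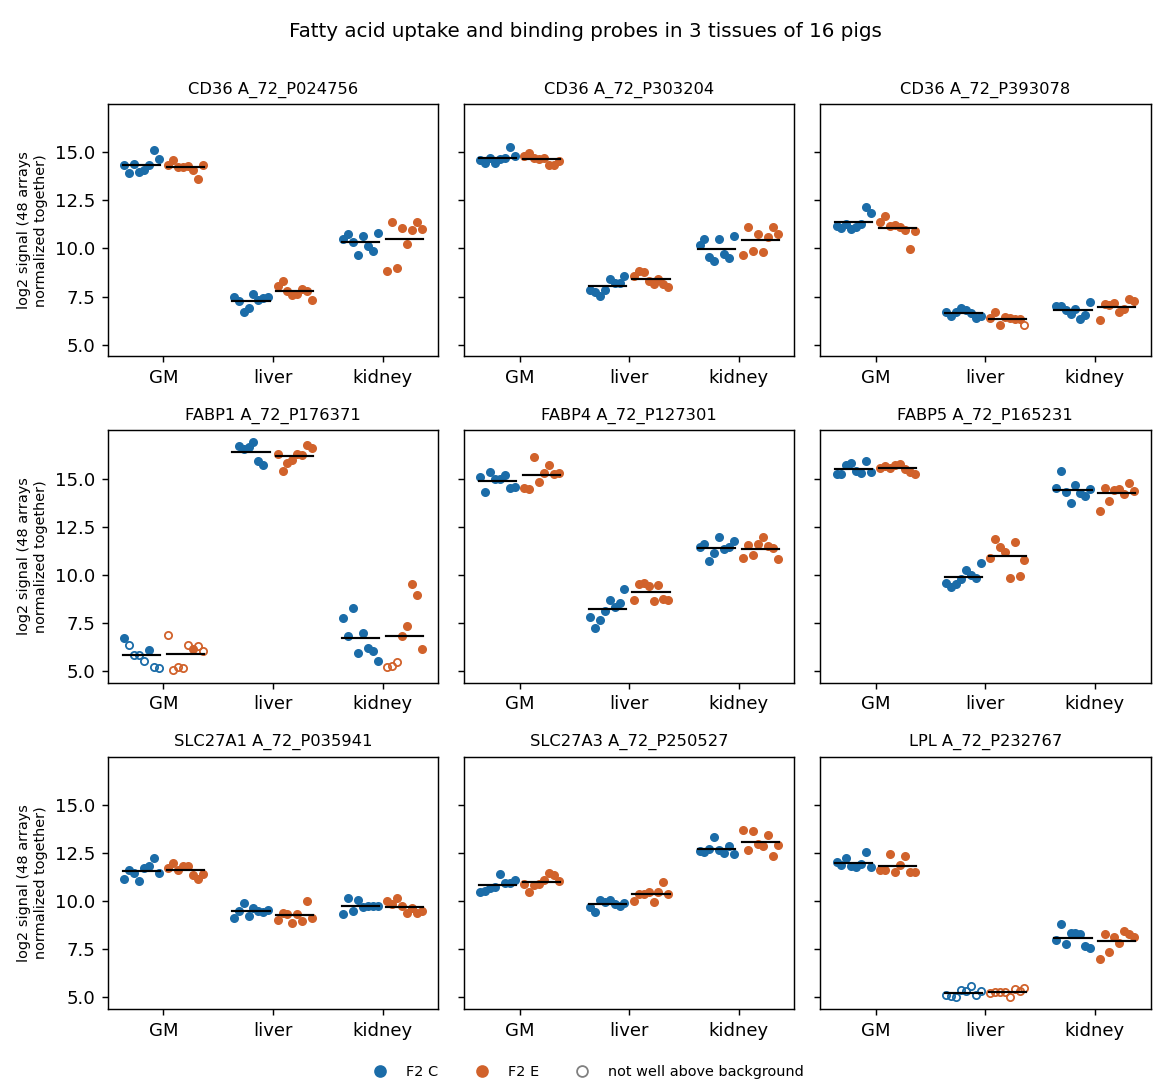
Log2 signal of the 9 member probes in GM, liver and kidney of 16 pigs, with all 48 arrays normalized together; each point is a pig, blue for F2 C and orange for F2 E, open where the spot was not well above background, and lines are means. The panel of FABP1 has its high values in liver, that of SLC27A3 in kidney, and the panels of LPL, CD36, FABP4 and FABP5 in GM.

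The labels of the tissues were checked on lists of cell markers that leave out the members. All 17 probes of skeletal muscle markers were brighter on each GM array than on any other array, as were 4 of 4 kidney tubule probes in kidney and 9 of 10 hepatocyte probes in liver. The exception was HNF4A, a transcription factor of liver that the kidney tubule also expresses. The other genes around fatty acid handling came from lists with 54 genes, of which 20 had a probe tested here. Between liver and kidney 13 of their 36 probes were called higher in liver and 3 lower, against 11.4% and 13.5% of all probes. Between GM and liver 12 were higher and 13 lower in GM, against 15% and 14.6%. Between GM and kidney 15 were higher and 5 lower in GM, against 15.3% and 17.1%.

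Among the partners of uptake, CAV1, the coat protein of caveolae, was higher in GM than in liver by 3.87 and 3.81 on its 2 probes and than in kidney by 3.43 and 3.37. GOT2, a mitochondrial aminotransferase also described as a fatty acid binding protein of the plasma membrane, was higher in GM by 1.89 against liver and 2.98 against kidney on the probe A_72_P024076 and by 1.25 and 1.14 on A_72_P078076. The first GOT2 probe was higher in liver than in kidney by 1.09, and the second was not called there (-0.11). SCARB1, a lipoprotein receptor with 1 probe, was higher in liver than in kidney by 1.52. For the entry into mitochondria, CPT1B, the muscle form of carnitine palmitoyltransferase, was higher in GM on all 3 of its probes, by 3.42 to 3.53 against liver and by 1.79 to 3.91 against kidney. The 3 probes of CPT1A, the liver form, were lower in GM than in liver (-3.64, -3.57 and -1.18 for A_72_P403023, A_72_P402183 and A_72_P409728) but differed in kidney. Against kidney A_72_P403023 and A_72_P409728 were lower in GM, with -3.77 and -1.15, and A_72_P402183 was not called (-0.20). Between liver and kidney A_72_P402183 alone was called, with 3.37, while the others had -0.13 and 0.03. For CPT1A in kidney the probes thus give no single order of the tissues. ACSL4, an acyl-CoA synthetase, was called between liver and kidney on 2 of 6 probes, higher in liver by 2.40 and 1.07, and the other 4 lay between -0.50 and 0.49.

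Around LPL, APOC3, an apolipoprotein that restrains LPL, was lower in GM than in liver by -10.90 and than in kidney by -5.58, and higher in liver than in kidney by 5.32. LIPE, the hormone-sensitive lipase, was higher in GM than in kidney by 3.17. ALB, the carrier of fatty acids in plasma, was higher in liver than in kidney by 11.89 and 9.10 on its 2 probes, A_72_P175281 and A_72_P165481, and both were lower in GM than in liver. The first was 1.24 higher in GM than in kidney, and the second was not called there (adjusted p = 0.0915 in limma). Among the regulators, PPARG, the adipocyte receptor that drives FABP4 and LPL in fat cells, was higher in GM than in liver by 3.66 and than in kidney by 2.64, and lower in liver than in kidney by -1.01. HNF4A was at least 13.7-fold higher in kidney than in GM and lower in GM than in liver by at least 4.08 on the log2 scale, since 0 of 16 GM arrays had it well above background. NR1H3, a sterol receptor, was higher in liver than in kidney by 2.72 and 2.23 on its 2 probes.

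The comparison of F2 E with F2 C asks whether the diet of the founder boars goes with a difference in the grand-offspring. In each tissue the 16 arrays were normalized among themselves, and log2 ratios are those of F2 E over F2 C. No member probe was called at an adjusted p below 0.05 in any tissue. In liver the probes of FABP4 and FABP5 had higher values in F2 E, most of all in the pigs of the lower number series, and in GM and kidney the groups overlapped widely for every member.

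In liver 8 of the 9 probes could be tested, since LPL was not above background. Limma called 0 of the 8 at an adjusted p below 0.05, where 0.0937% of all probes were called. At an unadjusted p below 0.01 it gave 4 of 8, all higher in F2 E, against 2.45% of all 28823 probes, and at an unadjusted p below 0.05 it gave 6 of 8, against 8.32%. Of the 4, the probes of CD36 and SLC27A3 owe their names to the liver list of the paper and cannot count as evidence. Among the 6 tested probes with a RefSeq name, 4 had an unadjusted p below 0.05 and 2 below 0.01, those of FABP4 and FABP5. The members were chosen with these results known, so that the share describes them and tests nothing. The log2 ratios of these 6 had a median of 0.06, with 3 higher and 3 lower in F2 E, against a median of -0.02 over all probes.

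FABP5 had liver log2 signals between 9.54 and 10.79 in F2 C, with a median of 9.98. The F2 E signals reached from 10.00 to 11.99, with a median of 11.18. All 8 F2 E pigs lay above the F2 C median, but the groups overlapped. The mean was 2.09-fold higher in F2 E (standard error of the log2 ratio 0.27, exact two-sided permutation p = 0.00466, adjusted p = 0.184 in limma). FABP4, whose gene lies next to that of FABP5 on chromosome 4 with PMP2 as the 1 coding gene between them in the RefSeq annotation of Sscrofa11.1, ranged from 7.38 to 9.40 in F2 C, with a median of 8.38. In F2 E it ranged from 8.80 to 9.71, with a median of 9.23. Here too all 8 F2 E pigs were above the F2 C median and the groups overlapped. The log2 ratio of FABP4 was 0.88 (standard error 0.25, exact two-sided permutation p = 0.00699, adjusted p = 0.266 in limma).

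These liver differences were mostly those of the lower series, which lay on the slides that held both lines. In that series the 4 F2 C pigs had FABP5 values of 9.54, 9.70, 9.75 and 9.96 and the 4 F2 E pigs had 11.03, 11.33, 11.56 and 11.99, without overlap. The FABP4 values of the same pigs were 7.38, 7.80, 7.96 and 8.28 in F2 C and 8.83, 9.57, 9.66 and 9.71 in F2 E, likewise apart. In the upper series, where each line had a slide of its own, F2 C had FABP5 values of 10.01, 10.14, 10.40 and 10.79 and F2 E had 10.00, 10.11, 10.94 and 11.84. The FABP4 values of the upper series were 8.48, 8.70, 8.86 and 9.40 in F2 C and 8.80, 8.83, 8.88 and 9.60 in F2 E. The lines thus overlapped for both genes in the upper series.

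The log2 ratio of FABP5 was 1.74 within the lower series and 0.39 within the upper series, and that of FABP4 was 1.59 and 0.17. On slide 1 the ratios were 1.87 for FABP5 and 1.58 for FABP4, and on slide 2 they were 1.61 and 1.60, from 2 pigs of each line. With slide as a fixed block, a fit whose line difference comes from slides 1 and 2 alone and so equals that of the lower series, limma called 4 of 8 member probes, against 0.427% of all probes. These were FABP4 (adjusted p = 0.00786), FABP5 (adjusted p = 0.0325) and the CD36 probes A_72_P024756 (adjusted p = 0.00992) and A_72_P303204 (adjusted p = 0.0165). With slide as a random block it called 0 members, against 0.0694% of all probes, with adjusted p in this order of 0.0996, 0.110, 0.113 and 0.271. With the number series as a fixed block it called 0 as well, against 0.16%, with 0.201, 0.164, 0.238 and 0.492. Over all alternatives that kept every pig or a whole series or slide, the adjusted p ranged from 0.00786 to 0.877 for FABP4 and from 0.00666 to 0.809 for FABP5. Among the 8 pigs of the lower series, limma called FABP5 (adjusted p = 0.00666) and FABP4 (adjusted p = 0.0356), against 0.219% of all probes, and within the upper series it called neither (adjusted p = 0.809 and 0.877), against 0.129%.

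**Figure D2:**
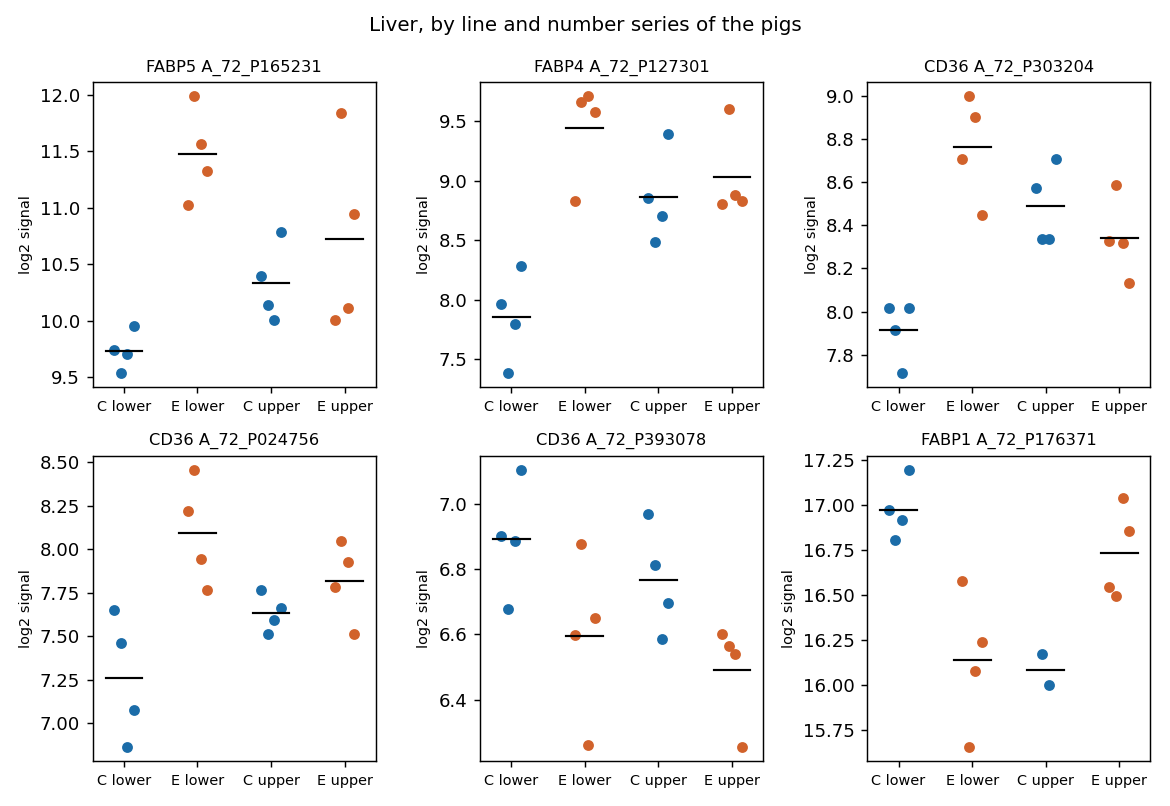
Log2 signal in liver of FABP5, FABP4, the 3 CD36 probes and FABP1, by line and by number series of the pigs; each point is a pig, blue for F2 C and orange for F2 E, and lines are means, with 4 pigs in each column except 2 for FABP1 in F2 C of the upper series. In the lower series F2 E lies above F2 C for FABP5 (11.03 to 11.99 against 9.54 to 9.96) and FABP4, and below it for FABP1.

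FABP1, the main fatty acid binding protein of liver, reached up to 17.19 in 6 F2 C pigs, with a median of 16.86, and from 15.66 to 17.04 in 8 F2 E pigs, with a median of 16.52. The groups overlapped, and 1 of 8 F2 E pigs lay above the F2 C median. The log2 ratio was -0.24 (exact two-sided permutation p = 0.344, adjusted p = 0.820 in limma). It had opposite signs in the series. In the lower series F2 C had 16.80, 16.91, 16.97 and 17.19 and F2 E had 15.66, 16.08, 16.24 and 16.58, without overlap, a log2 ratio of -0.83. In the upper series the 2 measured F2 C pigs had at most 16.17 and F2 E had 16.50, 16.55, 16.85 and 17.04, again without overlap, a log2 ratio of 0.65.

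Of the transport proteins, SLC27A3 ranged in liver from 9.60 to 10.24 in F2 C and from 10.13 to 11.14 in F2 E, with medians of 10.03 and 10.53. The groups overlapped, all 8 F2 E pigs lay above the F2 C median, and the log2 ratio was 0.52 in the lower and 0.56 in the upper series. SLC27A1 ranged from 9.26 to 10.03 in F2 C and from 9.02 to 10.15 in F2 E, and its log2 ratio of -0.22 (exact two-sided permutation p = 0.165, adjusted p = 0.738 in limma) was smaller than the SD of either group. It was -0.27 in the lower and -0.18 in the upper series. LPL was not well above background in liver of either line, so that it has no ratio there.

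The 3 probes of CD36 differed from each other in liver. The probe A_72_P024756 ranged from 6.86 to 7.77 in F2 C and from 7.51 to 8.46 in F2 E, with medians of 7.55 and 7.94. A_72_P303204 ranged from 7.71 to 8.71 in F2 C and from 8.13 upward in F2 E, with medians of 8.18 and 8.52. On each of them 7 of 8 F2 E pigs lay above the F2 C median. On A_72_P393078 the order was the other way: F2 C ranged from 6.58 to 7.10 and F2 E from 6.26 to 6.88, with 1 of 8 F2 E pigs above the F2 C median. Its signal was near the background, and it was well above background on 15 of the 16 liver arrays. The line difference of 1 probe minus that of another was tested over pigs for the 9 combinations of probes and tissues with an exact two-sided permutation test. In liver of the 16 pigs A_72_P024756 exceeded A_72_P393078 by 0.80 (exact two-sided permutation p = 0.000155, the smallest possible, adjusted p = 0.0014), and A_72_P303204 exceeded it by 0.64 (exact two-sided permutation p = 0.00311, adjusted p = 0.014). The other 7 combinations were not called, with adjusted p from 0.115 to 0.795. A_72_P024756 was named only through the liver list, which its own liver difference put it on, so its comparison is a description.

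Within the series the liver log2 ratio of A_72_P024756 was 0.83 in the lower and 0.19 in the upper series, and that of A_72_P303204 was 0.85 and -0.15. That of A_72_P393078 was -0.30 and -0.28. Over the pigs the first pair of probes went together in liver (Pearson's r 0.84), while A_72_P393078 had r of -0.32 and -0.27 with them. In GM, where CD36 was bright, r between the 3 probes lay between 0.86 and 0.92, and in kidney between 0.68 and 0.82, or between 0.84 and 0.97 without the 2 dim arrays.

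Markers of other cells were read beside the liver values, since FABP4 and FABP5 are also known from fat, endothelial and immune cells. Of 10 adipocyte markers 8 had a probe, and the summed linear signal of their 9 probes went from 12355 to 18918 in F2 C and from 15386 to 25140 in F2 E, with medians of 16618 and 17730. The brightest was CFD, and 1 of the 2 RETN probes had 0 of 16 liver arrays well above background. For endothelial cells 4 of 10 markers had a probe, with sums from 18423 to 24475 in F2 C and from 18453 to 24346 in F2 E, and CDH5 as the brightest. For macrophages 5 of 10 markers had a probe, with sums from 69815 to 98348 in F2 C and from 74153 to 115341 in F2 E, and CD14 as the brightest. Of hepatocyte markers 7 of 10 had a probe, and the sums over 5 probes measured on all liver arrays went from 1074270 to 1271020 in F2 C and from 968729 to 1171080 in F2 E, with ALB as the brightest. Of the erythroid list 1 of 5 genes had a probe. Over the 2 series together all of these ranges overlapped between the lines, but within a series some did not. In the lower series, where FABP4 and FABP5 differed most, the adipocyte sums were 12355, 14496, 16523 and 16786 in F2 C and 17248, 17254, 23887 and 25140 in F2 E. The endothelial sums of that series were 18423, 18605, 18798 and 19465 in F2 C and 20093, 21285, 21965 and 22019 in F2 E. Both sums thus lay higher in F2 E there without overlap, and both overlapped in the upper series. With 4 pigs of each line in a series, and every list read in each tissue and series, some separations can arise by chance. Sums of other lists lay apart as well, among them the macrophage sums of kidney, lower in F2 E in the upper series. A sum follows its brightest probes. Over all 16 pigs 2 of the 7 endothelial probes were higher and 5 lower in F2 E, with a median of -0.06, and of the 7 adipocyte probes tested 5 were higher and 2 lower, with a median of 0.02. The macrophage sums overlapped in each series, and the hepatocyte sums overlapped in the lower series but lay lower in F2 E, without overlap, in the upper series. Limma called 0 probes of any of these lists between the lines in liver, against 0.0937% of all probes. At an unadjusted p below 0.05 it gave 1 of 7 adipocyte probes there, that of LIPE, and 1 of 2 kidney tubule probes, that of CALB1. It gave 0 of the endothelial, macrophage, hepatocyte, skeletal muscle and erythroid lists, and the share of all probes was 8.32%. In GM it gave 1 of 7 adipocyte and 3 of 17 skeletal muscle probes at that limit, against 16.1% of all probes. Of the 3 muscle probes 2 were higher in F2 E. In kidney it gave 1 of 9 hepatocyte probes, against 3.84%. In both tissues 0 were called, against 0.761% and 0.0119% of all probes. The part of these cells in the values of FABP4 and FABP5 was not tested.

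In GM limma called 0 of the 8 tested member probes at an adjusted p below 0.05, where 0.761% of all 25622 probes were called. It gave 0 at an unadjusted p below 0.01, against 5.71% of all probes, and 0 at an unadjusted p below 0.05, against 16.1%. The log2 ratios lay between -0.33 and 0.34, with a median of -0.01, and the adjusted p between 0.468 and 0.914. FABP1 was not tested, since it was well above background on 2 F2 C and 1 F2 E arrays. LPL ranged from 11.10 to 11.93 in F2 C and from 10.83 to 11.82 in F2 E, a log2 ratio of -0.19. Of the uptake proteins, the 3 CD36 probes had log2 ratios of -0.16, -0.06 and -0.33, SLC27A1 had 0.05 and SLC27A3 had 0.18. FABP4 ranged from 13.80 to 14.93 in F2 C and from 13.97 to 15.79 in F2 E, a log2 ratio of 0.34, the highest of the members in GM. FABP5 ranged from 14.82 to 15.58 in F2 C and from 14.82 to 15.41 in F2 E. Every member's groups overlapped in GM. Without the 4 arrays with the fewest spots, with 4 F2 E and 8 F2 C arrays, limma again called 0 of 8 members, against 3.76% of all 26142 probes. An unadjusted p below 0.01 was seen for 0, against 9.40%, and below 0.05 for 3, against 22.7%. These 3 were FABP4, whose log2 ratio went from 0.34 to 0.55 (exact two-sided permutation p = 0.0283), the CD36 probe A_72_P393078, from -0.33 to -0.67 (exact two-sided permutation p = 0.0263), and SLC27A3, from 0.18 to 0.43 (exact two-sided permutation p = 0.0525).

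The series differed in GM too. The CD36 log2 ratios were 0.20, 0.27 and 0.26 in the lower series and -0.52, -0.39 and -0.92 in the upper series, for A_72_P024756, A_72_P303204 and A_72_P393078 in this order. The log2 ratio of SLC27A1 was 0.50 in the lower and -0.40 in the upper series, and that of FABP4 was 0.05 and 0.63. The adipocyte sums in GM overlapped in the lower series, whereas in the upper series they were 35707, 35922, 40568 and 49785 in F2 C and 51514, 57631, 66577 and 68081 in F2 E, without overlap. These sums are led by CFD, their brightest probe (log2 ratio 0.36, adjusted p = 0.148 in limma), whereas over the 7 tested adipocyte probes 3 were higher and 4 lower in F2 E, with a median of -0.02. The endothelial sums in GM lay higher in F2 E without overlap in the lower series and overlapped in the upper. The skeletal muscle sums lay higher in F2 E without overlap in the upper series, where CD36 and SLC27A1 were lower, and overlapped in the lower. The part of these cells in the member values was not tested. For LPL the ratios were -0.18 and -0.20, for SLC27A3 0.20 and 0.16 and for FABP5 0.13 and -0.02. In GM each line and series had its own slide, so that slide and these differences cannot be told apart.

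In kidney limma called 0 of the 9 member probes at an adjusted p below 0.05, against 0.0119% of all 33662 probes. It gave 0 at an unadjusted p below 0.01, against 0.998%, and 0 at an unadjusted p below 0.05, against 3.84%. The log2 ratios lay between -0.17 and 0.45, with a median of 0.09. The highest was that of the CD36 probe A_72_P303204, which ranged from 10.00 to 11.23 in F2 C and from 10.28 to 11.68 in F2 E (exact two-sided permutation p = 0.117). SLC27A3, most abundant in this tissue, ranged from 12.96 to 13.76 in F2 C and from 12.84 to 14.07 in F2 E, a log2 ratio of 0.31 (exact two-sided permutation p = 0.103). The log2 ratios of LPL, FABP5, FABP4 and SLC27A1 were -0.17, -0.17, -0.06 and -0.05, less than the SD of either group. All groups overlapped.

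The 2 dim kidney arrays of F2 E held extreme values of several members. They had the lowest 2 signals of the CD36 probe A_72_P024756 (9.59 and 9.44, others from 10.28) and of LPL (7.87 and 7.45, others from 8.08), and the highest 2 of SLC27A3 (14.02 and 14.07, others up to 13.83). For FABP5 they had 14.21 and 13.76, where the lowest of the others was 14.10. Without them, with 6 F2 E and 8 F2 C arrays, limma again called 0 of the 9 members, against 0.0207% of all 33743 probes. An unadjusted p below 0.01 was seen for 1 member, against 1.52% of all probes, and below 0.05 for 2, against 5.60%. The log2 ratio of A_72_P024756 went from 0.13 to 0.65 (exact two-sided permutation p = 0.0143, adjusted p = 0.590 in limma) and that of A_72_P303204 from 0.45 to 0.67 (exact two-sided permutation p = 0.0303, adjusted p = 0.713). That of SLC27A3 went from 0.31 to 0.13, while LPL, FABP5 and FABP4 changed sign, to 0.11, 0.02 and 0.07. The other 2 arrays of that slide had median signals of 132 and 133, and A_72_P024756 had 11.93 and 11.63 there. The part of the slide in the low values was not tested. Signal strength and pigs cannot be told apart here.

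FABP1 varied most among the kidneys. In F2 C it ranged from 5.49 to 8.88, well above background on 8 of 8 arrays, and in F2 E from 5.11 to 10.12, well above background on 5 of 8 arrays. The log2 ratio was 0.09 (standard error 0.73) with all arrays and 0.72 (standard error 0.76, exact two-sided permutation p = 0.411) without the 2 dim ones, each less than its standard error. The 4 F2 E pigs of the lower series had 5.11, 5.15, 5.42 and 7.24, of which the lowest 3 were not well above background, and the F2 C pigs of that series had 6.05, 7.24, 8.33 and 8.88. In the upper series F2 E had 6.33, 7.87, 9.56 and 10.12 and F2 C had 5.49, 6.22, 6.42 and 7.44. The log2 ratio was 2.08 in the upper series. In the lower series its size is uncertain because of the values at background, 2 of which come from the dim arrays, and with the bound F2 E was at least 2.92-fold lower. Each line and series had its own kidney slide, and slide and pigs cannot be told apart. The summed signal of the hepatocyte markers in kidney went from 13884 to 34973 in F2 C and from 13519 to 91764 in F2 E, with TTR as the brightest, and that of 4 kidney tubule markers went from 82415 to 115041 in F2 C and from 80458 to 117723 in F2 E, with SLC34A1 as the brightest. Their part in the FABP1 values was not tested.

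Whether the difference between lines depends on the tissue was tested by contrasts over all 48 arrays, with the pig as a random block. Limma called 0 of the 9 member probes for each pair of tissues, where 0.0203% of all 34499 probes were called for liver against kidney, 0.122% for GM against liver and 0.0435% for GM against kidney. LPL was well above background on 0 of 16 liver arrays and FABP1 on 3 of 16 GM arrays. The contrasts of LPL with liver and of FABP1 with GM thus use values at background and decide nothing. At an unadjusted p below 0.05 it gave 3 members for liver against kidney, 1 for GM against liver and 1 for GM against kidney, against 2.28%, 7.48% and 5.68% of all probes. With all 48 arrays FABP5 came nearest to a call. Its line log2 ratio in liver exceeded that in kidney by 1.27 (standard error 0.31, adjusted p = 0.331 in limma), and its ratio in GM lay below that in liver, with -1.03 (standard error 0.31, adjusted p = 0.255). The difference for FABP4 between liver and kidney was 0.95 (adjusted p = 1.00 in limma). Without the 2 dim kidney arrays limma again called 0 members for each pair, and the differences between liver and kidney were 1.05 for FABP5 (adjusted p = 0.680) and 0.82 for FABP4 (adjusted p = 0.983). Each of the 3 CD36 probes then had an unadjusted p below 0.05 between GM and kidney (adjusted p = 0.234, 0.297 and 0.364). Their differences went from -0.30 to -0.83 for A_72_P024756, from -0.52 to -0.77 for A_72_P303204 and from -0.49 to -0.60 for A_72_P393078. Between liver and kidney A_72_P024756 went from 0.37 to -0.16. Without the 4 GM arrays it called 0 members for each pair as well. The lowest adjusted p was then that of the CD36 probe A_72_P393078 between GM and kidney (-0.81, adjusted p = 0.150 in limma), which had -0.49 with all arrays. For FABP5 between GM and liver the adjusted p was 0.188. A liver difference that is larger than that in the other tissues is therefore not shown for any member.

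A dependence on sex was examined with a line-by-sex term in limma. It called 0 members in GM, liver and kidney, where 0%, 0% and 0% of all probes were called. At an unadjusted p below 0.05 it gave 2 of 8 GM members, 0 of 8 liver members and 0 of 9 kidney members (0 without the 2 dim arrays as well), against 3.46%, 1.75% and 2.64% of all probes. The 2 in GM were FABP5, with line log2 ratios of -0.24 in females and 0.35 in barrows, and the CD36 probe A_72_P393078, with -0.77 and 0.11 (each adjusted p = 0.992). Without the 4 GM arrays these 2 and LPL had an unadjusted p below 0.05, with an adjusted p of 0.719 each. The share of all probes is not given for that fit, so this count is a description only. In liver the log2 ratio of FABP5 was 0.87 in females and 1.26 in barrows, and that of FABP4 was 0.71 and 1.06.

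How the members varied with each other over the 16 pigs was described by 85 relations between member probes in the 3 tissues, with permutation p-values from 100000 resamples and Benjamini-Hochberg adjustment over the 85. By Pearson's r, 6 of 28 GM relations were called, as were 7 of 21 liver and 10 of 36 kidney relations, and all of them were positive except 3 in kidney. They include relations between CD36 probes, which read the same gene: all of these in GM and kidney, and that of A_72_P024756 with A_72_P303204 in liver. In liver they also include relations of A_72_P024756 and SLC27A3, which were named only through the liver list. A share over other pairs of probes is not given, so the counts only describe the members. Without the 2 dim arrays 3 of the 10 kidney relations were still called, those between the 3 CD36 probes, with adjustment over the 36 kidney relations and r from 0.84 to 0.97. In liver FABP4 and FABP5 had an r of 0.89 (p = 2e-05, adjusted p = 0.000425) and a Spearman's rho of 0.91 (p = 2e-05, adjusted p = 0.000425). Without the 2 pigs farthest from the median of the gene named first, here FABP4, r was 0.88. Within lines r was 0.96 in F2 C and 0.84 in F2 E, and within the lower and upper series it was 0.97 and 0.82. The 2 binding proteins thus went together in liver within each line and within each series. Each line spans both series and each series both lines, so these r also hold the steps between those groups. For both genes every F2 C pig of the lower series lay below every F2 C pig of the upper series. An r within a single line of a single series was not computed, here or for the relations below. FABP4 and FABP5 had an r of -0.04 in GM (p = 0.891, rho -0.01) and of 0.53 in kidney (p = 0.0341, adjusted p = 0.111; rho 0.56, p = 0.0267, adjusted p = 0.103).

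Of the 3 CD36 probes, A_72_P303204 varied with the binding proteins in liver, and A_72_P393078 did not, with r of -0.40 with FABP4 and -0.38 with FABP5. The probe A_72_P024756 was named only through the liver list, which its own line difference put it on. Its relations in liver are therefore a description and support nothing. For A_72_P024756 r was 0.69 with FABP4 and 0.71 with FABP5, but within F2 C and F2 E it was 0.49 and 0.38 with FABP4 and 0.49 and 0.49 with FABP5. For the probe A_72_P303204 and FABP4, r was 0.87 (p = 2e-05, adjusted p = 0.000425) and rho was 0.84 (p = 0.00012, adjusted p = 0.0017), and without the 2 farthest pigs r was 0.83. Within F2 C and F2 E r was 0.92 and 0.68, and within the lower and upper series 0.90 and 0.69. For the same probe and FABP5, r was 0.81 (p = 0.00015, adjusted p = 0.00127) and rho was 0.87 (p = 8e-05, adjusted p = 0.00136), with 0.74 without the 2 farthest pigs. Within lines it was 0.92 and 0.70, but within series 0.96 in the lower and 0.38 in the upper. In GM the same CD36 probe varied with SLC27A1 (r 0.79, p = 0.00027, adjusted p = 0.00209; rho 0.68, p = 0.00439, adjusted p = 0.0233), with 0.63 without the 2 farthest pigs, 0.74 and 0.91 within F2 C and F2 E, and 0.69 and 0.88 within the lower and upper series. Without the 4 GM arrays it was 0.77 (p = 0.0035, adjusted p = 0.0245 over the 28 GM relations; rho 0.67, p = 0.0206, adjusted p = 0.144). The other CD36 probes had weaker relations with SLC27A1. For A_72_P024756 r was 0.64 and rho 0.41 (adjusted p = 0.0292 and 0.297), with r 0.29 without the 2 farthest pigs. For A_72_P393078 r was 0.65 and rho 0.66 (adjusted p = 0.0232 and 0.0313), with r 0.38 without the 2 farthest pigs. Neither was called without the 4 GM arrays (adjusted p = 0.136 each), where r over the other 12 pigs was 0.64 for A_72_P024756 and 0.63 for A_72_P393078, about as large as before.

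**Figure D3:**
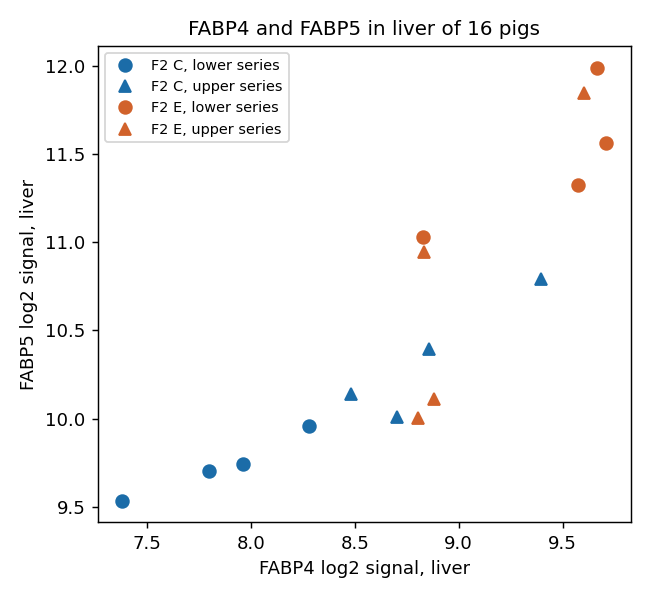
Log2 signal of FABP5 against that of FABP4 in liver of 16 pigs; circles are pigs of the lower and triangles pigs of the upper number series, blue for F2 C and orange for F2 E. The points rise together (r 0.89), from the F2 C pigs of the lower series to the F2 E pigs of the same series.

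In kidney FABP5 and SLC27A3 varied in opposite directions. Their r was -0.79 (p = 0.00015, adjusted p = 0.00127) and rho was -0.75 (p = 0.0011, adjusted p = 0.00719). It was -0.78 without the 2 farthest pigs, -0.69 and -0.90 within F2 C and F2 E, and -0.89 and -0.57 within the lower and upper series. The 2 dim arrays lie at 1 end of this relation, and over the other 14 pigs r was -0.64 and no longer called (p = 0.0146, adjusted p = 0.131; rho -0.64, p = 0.0161, adjusted p = 0.116). Within F2 E and within the lower series it was then -0.98 and -0.83, from 6 pigs each. Other called relations in kidney rested on the same 2 arrays: without them r between the CD36 probe A_72_P024756 and LPL went from 0.69 to 0.29, that between FABP5 and LPL from 0.69 to 0.40, and that between A_72_P024756 and SLC27A3 from -0.68 to -0.29. Over all 16 pigs their rho was 0.44, 0.40 and -0.46, with adjusted p of 0.273, 0.317 and 0.254. The r of FABP5 with A_72_P024756 went from 0.76 to 0.55 (adjusted p = 0.231) and that with A_72_P303204 from 0.60 to 0.55 (adjusted p = 0.231). FABP1 and SLC27A1 had an r of -0.62 in kidney (p = 0.0109, adjusted p = 0.0421; rho -0.71, p = 0.00244, adjusted p = 0.0138), with -0.61 without the 2 farthest pigs, -0.55 and -0.69 within F2 C and F2 E and -0.70 and -0.50 within the lower and upper series. Without the 2 dim arrays r was -0.52 (p = 0.057, adjusted p = 0.293; rho -0.67, p = 0.00998, adjusted p = 0.0898).

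For each member and tissue the named genes whose signal was most alike over the 16 pigs were listed, as a description, among the named probes well above background on all arrays of the tissue, which were 1787 for GM, 1962 for liver and 2079 for kidney. In GM, FABP4 was like PPARG (r 0.86) and TSPO (r 0.85), and FABP5 was most like CAV2 (r 0.75), HEY1 (r 0.65) and TBX3 (r 0.62). CD36 was most like VDAC1 and ACADS, a mitochondrial channel and an acyl-CoA dehydrogenase (r 0.88 each, A_72_P024756), CDH5, a cadherin of endothelial cells (r 0.87, A_72_P303204), and VDAC2 (r 0.93, A_72_P393078). SLC27A1 was most like IDH3B (r 0.84), an enzyme of the citric acid cycle, SLC27A3 like AIF1 (r 0.90) and LPL like YWHAZ (r 0.85). With the 4 GM arrays left out r went to 0.73 for PPARG and to 0.76 for YWHAZ, and the other named pairs kept r from 0.62 to 0.94.

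In liver the genes most like FABP4 among 1962 candidates were FABP5 (r 0.89), CD36 on the probe A_72_P303204 (r 0.87) and SLA-DRB1 (r 0.76). The CD36 probe A_72_P393078 had an r of -0.40 with FABP4. The members were chosen with earlier results of these data known, so their places in this order are a description only. FABP5 was most like FABP4, followed by PEAR1 (r 0.87) and KCNA5 (r 0.83), for both of which r was high within F2 E (0.91 and 0.85) and low within F2 C (0.20 and 0.01). The CD36 probe A_72_P303204 was most like FABP4, FABP5 and FBXO6 (r 0.80), and A_72_P024756 was most like FBXO6 (r 0.84). SLC27A1 was most like NELFE (r 0.86) and SLC27A3 like CCDC125 (r 0.84). In kidney FABP5 was most like ITM2A (r 0.91), TPM4 (r 0.90) and PECAM1 (r 0.90), an adhesion protein of endothelial cells. CD36 was most like FBN1 (r 0.92, A_72_P024756), GPNMB (r 0.85, A_72_P303204) and PLAT (r 0.82, A_72_P393078). FABP4 was most like KLF11 (r 0.79), SLC27A1 like PLTP (r 0.90), SLC27A3 like YLPM1 (r 0.82) and LPL like LDHB (r 0.87). Without the 2 dim kidney arrays these r were lower for several pairs: 0.86 for ITM2A, 0.83 for TPM4 and 0.83 for PECAM1 with FABP5, 0.79 for FBN1, 0.59 for YLPM1 and 0.73 for LDHB. They were 0.83 for GPNMB, 0.81 for PLAT, 0.82 for KLF11 and 0.88 for PLTP.

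Of the other 54 genes around fatty acid handling, 16 could be tested between the lines with the GM arrays, 19 with the liver arrays and 20 with the kidney arrays. Limma called 0 of their 30, 34 and 36 probes at an adjusted p below 0.05, against 0.761%, 0.0937% and 0.0119% of all probes. At an unadjusted p below 0.05 it gave 5 in GM, 2 of them higher in F2 E, 5 in liver, all higher in F2 E, and 2 in kidney, both higher, against 16.1%, 8.32% and 3.84% of all probes. The median log2 ratios of GM, liver and kidney were 0.05, -0.03 and 0.02. The probes with an unadjusted p below 0.01 were chosen after their values were seen. In liver these were both probes of CAV1, with log2 ratios of 0.63 and 0.68 (adjusted p = 0.148 and 0.182), LIPE with 0.42 (adjusted p = 0.277) and 1 of 3 probes of CPT1B with 0.73 (adjusted p = 0.266). The other CPT1B probes had 0.60 and 0.24. In kidney it was FABP7, the fatty acid binding protein of brain, with 0.74 (adjusted p = 0.746), and 0.96 without the 2 dim kidney arrays (adjusted p = 0.350). In GM there was none. By list, the uptake partners had 3 of 9 genes tested in liver, the other fatty acid binding proteins 3 of 9, the synthetases and mitochondrial entry 3 of 11, the LPL partners and lipases 5 of 17 and the regulators 5 of 8.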

How the data were processed

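Total RNA of GM, liver and kidney of 16 pigs was measured on 48 one-colour Agilent arrays. The scanner files deposited by the authors hold, per the file headers (Feature Extraction 10.5.1.1), intensities per spot that are not normalized. From them the median pixel intensity was quantile-normalized within a tissue (over all 48 arrays for tissues) and log2-transformed, without control spots; spots marked as outliers became missing values afterwards. The authors also deposited 3 tables of log2 signals with 48 per-array columns, not used here. Probes whose linear signal exceeded 25 and stood well above background for 50% or more of a group's arrays, with 2 or more arrays left in each group, were tested in limma 3.58.1 (R 4.3.3; lmFit, eBayes, Benjamini-Hochberg), as tested on simulated data. Depth on an array is signal over background, and the number of arrays limits the precision.

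Of 43603 probes, 2628 were named by RefSeq accession (Sscrofa11.1) and 237 by the paper's tables alone; 40738 are unnamed here. Members and lists were chosen with earlier results of these data known. Named are all members, listed genes called between lines, for each list and pair of tissues the 2 genes with the largest called difference, and up to 3 genes most alike to each member in each tissue. Pig pairs the tissues: the deviations of the same pig from its group means had a mean correlation of 0.14 between liver and kidney, 0.13 between GM and liver and 0.12 between GM and kidney. The estimated correlation within a pig for the random block was 0.03. The exact permutation test runs over all 12870 choices of 8 among 16 pigs (or all of 6 among 14, or 4 among 12), and its smallest two-sided p is 0.000155; correlations used 100000 resamples, whose smallest p is 1e-05. Alternatives covered the test, the signal (background-corrected, scaled to the 75th percentile, or normexp with an offset of 50, this one chosen after seeing the data), filters, marked spots, slide, series, sex, replicate number, single pigs, the 2 dimmest kidney arrays and the 4 GM arrays with the fewest spots, the last 2 also chosen after seeing the data. The paper's qPCR, methylation and carcass data were not used here.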

Additional observations from a re-analysis of the deposited data

Results flagged for a closer look

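Over the 50 groups of 8 or fewer arrays formed by a member probe, a tissue and a line, 3 (6%) held a pig whose distance to the nearest of the other pigs was large against the range of the group, and chance gives about 1 in 20. In GM the CD36 probe A_72_P303204 had 14.84 in F2 C replicate 3, with the next pig at 14.34 and the lowest at 13.93. The CD36 probe A_72_P393078 had 9.23 in GM of F2 E replicate 2, below the next pig at 10.19 and the highest at 10.99. SLC27A1 had 10.15 in liver of F2 E replicate 2, above the next pig at 9.55 and the lowest at 9.02. Both values of F2 E replicate 2 come from the same pig, whose GM array had the lowest median signal of the 16 (48, the next 50.5). The spots were well above background and not marked by the scanner software.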

How the results depend on the processing

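No member was called between lines in GM or kidney under any alternative or with any pig left out. In liver the count at an adjusted p below 0.05 was 0 with any pig left out and in the alternatives other than 2: it was 4 with slide as a fixed block (0.427% of all probes called) and 2 within the lower series (0.219%), a fit on 8 pigs. At an unadjusted p below 0.01 the liver count was 4 or 5 with a pig left out and 0 within the upper series. Without the 2 dimmest kidney arrays, chosen after seeing the data, the kidney counts were 0 called and 1 at an unadjusted p below 0.01 (1.52% of all probes), where the main fit had 0 (0.998%). Of the called tissue differences, GM against liver had 5 with probes well above background on all 48 arrays, since fewer probes pass.

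Log2 ratios changed sign within series, within a sex and in 6 other cases. In GM within the lower series CD36 had 0.20 (A_72_P024756), 0.27 (A_72_P303204) and 0.26 (A_72_P393078), and within the upper series FABP5 had -0.0213 and SLC27A1 -0.40. In liver within the upper series CD36 A_72_P303204 had -0.15 and FABP1 0.65. In kidney within the lower series CD36 A_72_P024756 had -0.27, FABP1 -1.90 (3 of 4 F2 E values at background), FABP4 0.0606 and SLC27A1 0.15, and within the upper series FABP5 had 0.0685 and LPL 0.22. FABP1 in kidney was -0.35 with the signal that the software had corrected for background. Without the 2 dimmest kidney arrays FABP4 had 0.0666, FABP5 0.0228 and LPL 0.11 there. Without the 4 GM arrays with the fewest spots, also chosen after seeing the data, FABP5 had -0.0265 and SLC27A1 -0.14 in GM. Within barrows CD36 had 0.17, 0.14 and 0.11 in GM (A_72_P024756, A_72_P303204, A_72_P393078), and in kidney -0.16 (A_72_P024756) and -0.0926 (A_72_P393078), with FABP1 at -0.30. Within females FABP5 had -0.24 and SLC27A1 -0.0439 in GM, and FABP5 0.18 and LPL 0.17 in kidney. With a pig left out, ratios of both signs were seen in GM for CD36 A_72_P303204 (-0.12 to 0.0290) and SLC27A1 (-0.0294 to 0.15), and in kidney for FABP1 (-0.34 to 0.38), FABP4 (-0.16 to 0.0144) and SLC27A1 (-0.11 to 0.00789). The ratios within a sex are means without a test, none of the others was called, and the cause was not tested.

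With the replicate number as a block, the liver counts were 0 and 4, and no call between lines changed. The numbers join different pigs: 4 of 16 arrays in GM, 6 in liver and 1 in kidney correlated best with their own number in the other line. With no block for the pig the tissue counts were 7, 8 and 8. The median signal scaled to the 75th percentile moved the median of all probes to 0.60 for GM against kidney, 0.25 for GM against liver and 0.38 for liver against kidney. SLC27A3 reached 2-fold between GM and liver in F2 C alone (1.02), and FABP1 between GM and kidney without 1 pig of F2 E (-1.08) and without the pigs of the 2 dimmest kidney arrays (-1.15) or of the 4 GM arrays (-1.19). PPARG between liver and kidney was under 2-fold in some fits (-0.76 with normexp, -0.91 with the median signal scaled, -0.97 without the pigs of the 2 dimmest kidney arrays). So was GOT2 (0.97 with normexp, 0.94 without the pigs of the 2 dimmest kidney arrays). ALB between GM and kidney had an adjusted p of 0.0912 in F2 E alone. Its difference was under 2-fold with normexp (0.92) and without the pigs of the 2 dimmest kidney arrays (0.996). FABP7 in kidney was called within the upper series (1.09, adjusted p = 0.0401). With the background-corrected signal, for correlations chosen after seeing the data, those of FABP1 with SLC27A1 (adjusted p = 0.0559) and of CD36 A_72_P303204 with FABP5 (0.148) in kidney, and of FABP4 with SLC27A3 in liver (0.0614), were no longer called. Their r was -0.60, 0.50 and 0.59 in this order, against -0.62, 0.60 and 0.64 in the main analysis. With that signal the CD36 probes A_72_P024756 and A_72_P303204 differed in liver by 0.23 (adjusted p = 0.048). Without the 2 dimmest kidney arrays 7 of the 10 kidney correlations were no longer called, that of FABP5 with SLC27A3 at -0.64 (adjusted p = 0.131) among them. Without the 4 GM arrays 2 of the 6 GM correlations were no longer called, those of SLC27A1 with CD36 A_72_P024756 and A_72_P393078 (adjusted p = 0.136 each). Their r was then 0.64 and 0.63, against 0.64 and 0.65 over 16 pigs. The authors' log2 signals and normexp on the mean signal were not run, since array columns were not matched and the files used hold no mean signal. Signal over background limits FABP1 in GM and LPL in liver.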
